A study of Danio rerio with 16 samples.

Results

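The tailbuds of zebrafish embryos treated with DMH1, a small molecule that blocks the kinase of BMP type I receptors, were compared with those of wild-type (WT) embryos, cell class by cell class. The comparison used 8 of the 16 single-cell RNA libraries of the series, 4 labelled DMH1 and 4 labelled WT, selected by the treatment recorded for every cell. A library came from a pool of 10 tails, cut behind the youngest somite at the 10 to 12 somite stage and dissociated with papain. The series' design describes the pools as biological replicates. That design lists BMP inhibition among treatments known to change cell migration in the tailbud. The sources used here do not give the dose or duration of DMH1, the strain, or whether WT embryos received vehicle. The DMH1 group held 31485 cells (6430 to 8811 per library) and the WT group 34632 cells (6935 to 11617 per library), together 66117 of 130661 cells. The authors had assigned each cell to 1 of 25 classes, whose names are used here as they gave them. They did not spell out NMP, PZ or EVL in the sources used. RNA molecules, counted by unique molecular identifiers (UMIs), were summed over the cells of a class in each library, so that a library counted once in every test.

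Bone morphogenetic proteins (BMPs) are secreted ligands that bind paired type I and type II serine-threonine kinase receptors. The type I receptor phosphorylates Smad1, Smad5 and Smad9, which enter the nucleus with Smad4 and switch on genes such as the id, msx and vent/vox families. Secreted antagonists (Chordin, Noggins, Follistatin-like proteins) hold the ligands off the receptors, and inhibitory Smads and the decoy receptor Bambi dampen the signal inside the cell. In the fish embryo BMP signalling patterns the dorsoventral axis, specifies epidermis and ventral mesoderm, and acts in the tailbud on mesodermal progenitors.

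The DMH1 libraries held 46922073 to 76488460 UMIs and the WT libraries 26415698 to 50512590. Median UMIs per cell were 6870 to 8139 in DMH1 libraries and 3381 to 5637 in WT libraries. The median mitochondrial share of a cell's UMIs was 3.56 to 4.88% in DMH1 libraries and 1.52 to 2.38% in WT libraries, and the highest share kept was 6.96 to 6.999% in DMH1 libraries and 4.53 to 4.998% in WT libraries. The deposited cells of the 2 groups thus end at different mitochondrial shares. Common limits (under 4.5% mitochondrial UMIs and at least 1500 genes) kept 2155 to 6260 cells per DMH1 library and 1121 to 5272 cells per WT library. Results that depend on these limits are given with both values. The labels name no batch or date, so a batch that follows the treatment cannot be told apart from it. Libraries shared 7 to 36 cell barcodes per pair, at most 0.424% of the smaller library. Marker RNA in classes that should lack it, which can include RNA free in the droplets, also differed. For 5 markers of the lmo2 class, measured in 10 other classes, it stood at 4.41 ± 1.17% of the all-cell level in DMH1 libraries and 14.05 ± 1.78% in WT libraries (SD, n = 4 each). The exact two-sided permutation p was 0.0286, the smallest possible with 4 against 4. For 5 notochord markers, measured in 9 classes, the shares were 10.1 ± 2.00% in DMH1 libraries and 21.4 ± 3.28% in WT libraries (exact permutation p = 0.0286). For 6 adaxial markers they were 34.3 ± 4.81% in DMH1 and 41.7 ± 4.62% in WT libraries (exact permutation p = 0.0571), and for 8 epidermal markers 19.8 ± 4.06% and 27.5 ± 2.84% (exact permutation p = 0.0571). In DMH1 libraries the mean thus ranged from 4.41% to 34.3% between marker sets, so these shares need not be free RNA alone. A low level of a gene in a class that does not make it is therefore not read here as expression. The part of free RNA in falls seen across off-type classes was not tested.

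The class names were checked by counting marker genes at 2 or more times their all-cell level. Differentiated neuronal, mucus producing and polster cells had no marker list, so their names were not checked. PZ 3 was scored with the list made for PZ 1 and PZ 2. Most classes held at least 3 of their markers at that level in both groups, among them anterior adaxial (6 of 6), lmo2 lateral plate mesoderm (5 of 5) and dorsal neuronal cells (7 of 8). Kupffer's vesicle held 4 of 6 in DMH1 and 2 in WT libraries, PZ 1 held 2 of 5 in each, PZ 2 held 2 of 5 in DMH1 and 1 in WT libraries, and posterior adaxial 2 of 6 and 1. Epidermis 2 held 2 of 8 epidermal markers in DMH1 and 0 in WT libraries, and PZ 3 held 3 of 5 PZ markers in DMH1 and 0 in WT libraries. The genes that led epidermis 2 in WT libraries were apoc2, mmp30 and actn1, and those that led PZ 3 were isg15, phlda3, casp8 and mat2al, so both names are used only as the authors' labels. In summed cells, fewer cells that express a gene and less RNA per cell cannot be told apart.

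Over all cells, 63.3% of genes differed between DMH1 and WT libraries at an adjusted p under 0.05 in edgeR's quasi-likelihood test. A gene is said to be called, to rise or to fall by this rule. Of 15648 genes tested, 5015 rose (32%) and 4897 fell (31.3%). Without scaling beyond the library total the split was 6400 higher and 3634 lower, and the median over all genes was 0.20 in place of 0.02 (log2). Changes are given on the log2 scale, DMH1 over WT. In the 22 classes with at least 10 cells in every library, 86579 of 165819 gene and class pairs were called (52.2%), 43552 higher (26.3%) and 43027 lower (25.9%). With every class sum thinned to at most 189671 UMIs, 19840 of the 45749 pairs then tested were called. Counting only pairs where the gene stood at its all-cell level or above, 48505 were called. These shares are the background for every gene group below, since a call is common in this comparison.

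The classes differ in cells and UMIs, so each was also thinned at random to the same 189671 UMIs per library and tested over the same 1208 genes, in the 21 classes with at least 30 cells per library. On this footing the classes lay close together, with 552 to 680 genes called (45.7 to 56.3%). The posterior notochord led with 680 genes, ahead of the anterior notochord with 671 and NMP with 648, and epidermis 1 was last with 552, below the lmo2 lateral plate class with 585. Because the draw is random, it was made 10 times, 8 of them added after the data were seen. The posterior notochord ranked 1 or 2 in all 10 draws, the anterior notochord between 1 and 5 and epidermis 2 between 3 and 6. At the other end, epidermis 1 ranked between 18 and 21 and was last in 9 draws. The order between them was loose: NMP ranked anywhere between 2 and 18, anterior neuronal cells between 2 and 17, and PZ 3 between 7 and 20, so neighbouring classes could not be ranked. With 421215 UMIs in each of the 17 classes of at least 100 cells per library, the posterior notochord (1327 of 2383 genes) and anterior notochord (1294) again stood first and epidermis 1 (1100) last. When any single library was left out, the posterior notochord ranked 1 or 2 and epidermis 1 was last each time, whereas the anterior notochord ranked 11 without the WT library DJ1 and between 1 and 5 without any other. Epidermis 2 ranked between 2 and 12, and 13 without scaling beyond the library total. These ranks count calls, which depend on the spread among libraries as well as on the size of change. At full depth, over the genes tested in each class, the median absolute log2 change was 0.50 in the anterior and 0.48 in the posterior notochord. It was 0.46 in epidermis 1 and 0.45 in epidermis 2.

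**Figure D1:**
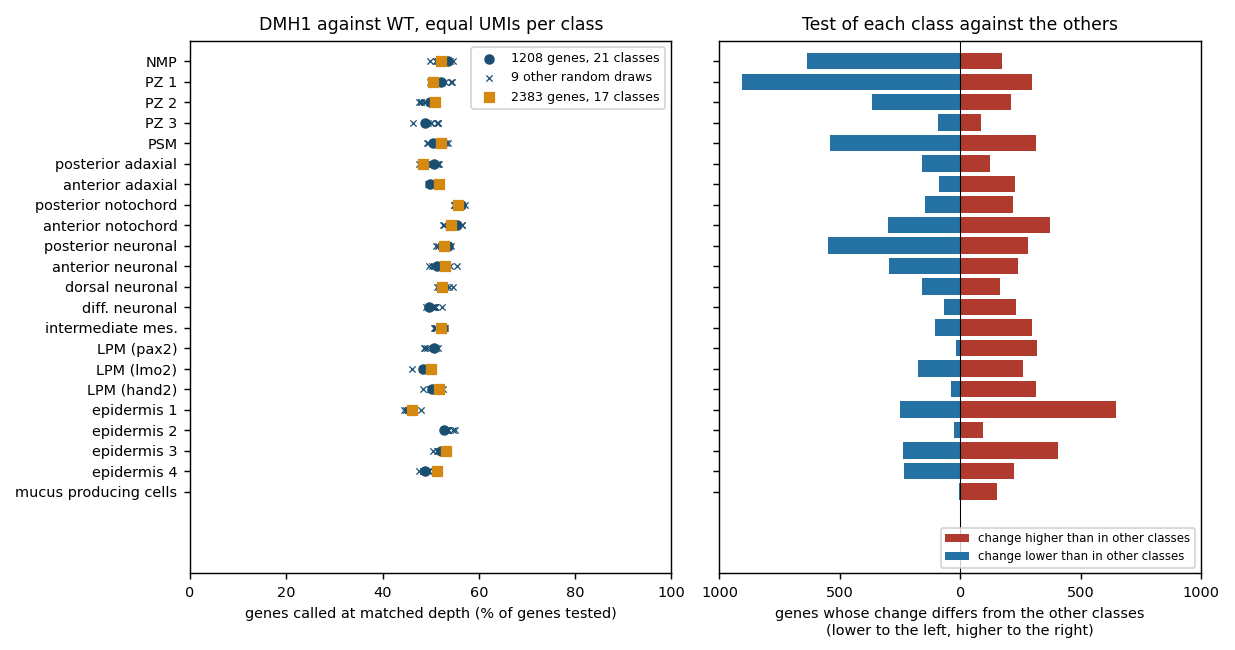
Response of each class to DMH1. Left: share of genes called in DMH1 against WT libraries after every class was thinned to equal UMIs (circles, 1208 genes in 21 classes; crosses, 9 other random draws; squares, 2383 genes in 17 classes), which spans 45.7 to 56.3% for the circles. Right: number of genes whose DMH1 response in the class lay above (bars to the right) or below (bars to the left) that in the other classes by the limma test, with PZ 1 the longest to the left (907) and epidermis 1 the longest to the right (649).

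Part of the response was shared. Of 3805 genes tested in all 21 of these classes, 371 rose in every class (9.75%) and 526 fell in every class (13.8%). Another 214 (5.62%) were called higher in 1 class and lower in another, and 217 (5.70%) were called in none. The shared rises were led by genes of glycolysis and of the response to low oxygen. egln3, which encodes a prolyl hydroxylase that marks HIF-alpha for breakdown and is itself a HIF target, had, over all cells, 78.4, 70.5, 140.0 and 109 CPM in the DMH1 libraries, against 4.33, 12.5, 3.57 and 4.76 CPM in the WT libraries. egln3 changed by 3.94 (SE 0.49, edgeR adjusted p = 4.52e-04). Every DMH1 library lay far above every WT library, and 1 WT library, DJ2, lay well above the other WT libraries. Across the 21 classes egln3 changed by 3.28 to 6.82, with a median of 3.99. eno1a, an enolase, changed by a median of 4.87, ldha, which turns pyruvate into lactate, by 3.93, and egln2, another prolyl hydroxylase, by 3.65. The uncharacterised si:dkey-85k7.7 had the largest median, 5.05. In single classes such changes can rest on few WT UMIs, so their fitted sizes are less precise. In posterior neuronal cells eno1a had 1814 UMIs over the DMH1 and 10 over the WT libraries. Of 385 pairs of an oxygen or glycolysis list gene with a class, 242 rose and 68 fell (background 26.3% higher), with a median of 0.82.

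The shared falls were led by heat shock genes. hsp70.1, an inducible chaperone, had, over all cells, 6.36, 9.53, 5.98 and 4.08 CPM in the DMH1 libraries, against 560.5, 259.8, 594 and 667 CPM in the WT libraries. hsp70.1 changed by -6.34 (SE 0.44, edgeR adjusted p = 1.83e-05). The groups did not overlap. Medians over the 21 classes were -6.50 for hsp70.1, -6.19 for hsp70l, -6.10 for hsp70.3 and -6.07 for hsp70.2. These are near-identical copies whose reads the counting could split between them. In single classes their DMH1 counts were few, so the fitted sizes are less precise. hsp70.2 had 4 UMIs over the DMH1 libraries in the intermediate mesoderm, and hsp70.1 had 17 in epidermis 4. The uncharacterised CABZ01080568.1 had a median of -3.21. Of 355 heat shock and chaperone pairs 224 fell and 57 rose (background for this and the next list 25.9% lower and 26.3% higher). The p53 response list fell in 155 of 268 pairs and rose in 32: mdm2, which encodes the ubiquitin ligase that degrades p53, fell in 21 of 22 classes, and cdkn1a, a cell cycle inhibitor, in 12 of 12. The mitochondrial shares and depths given above moved with the same groups, and their part in these shared changes was not tested.

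Most genes of the BMP target list were lower after DMH1. Of the 26 listed genes 25 were in the matrix and 24 were tested; over all cells 16 fell (31.3% of all genes fell) and 1 rose, with a median log2 fold change of -1.04 against 0.02 for all genes. By class, 272 of 382 target pairs fell (71.2%, against 25.9% of all pairs) and 24 rose (6.28%). vox was lower in 21 of 21 classes, msx3 in 20 of 20, vent in 19 of 19, msx2b in 13 of 13 and id4 in 12 of 12, all genes for transcription factors or, for id4, an inhibitor of bHLH factors. bambia and bambib, which encode the decoy receptor Bambi, fell in 18 of 21 and 16 of 17 classes. The inhibitory Smads fell in fewer: smad7 in 10 of 21 classes, smad6a in 6 of 15 and smad6b in 0 of 3. Reweighting the WT class levels to the class makeup of DMH1 libraries moved id1 by 0.01, and its measured all-cell level differed by -1.48 (both log2 of unscaled CPM). For other targets the makeup alone gave up to 0.44, for tbx2a (0.19 measured), with 0.34 for gata2a (0.29 measured) and 0.33 for gata3 (1.11 measured).

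**Figure D2:**
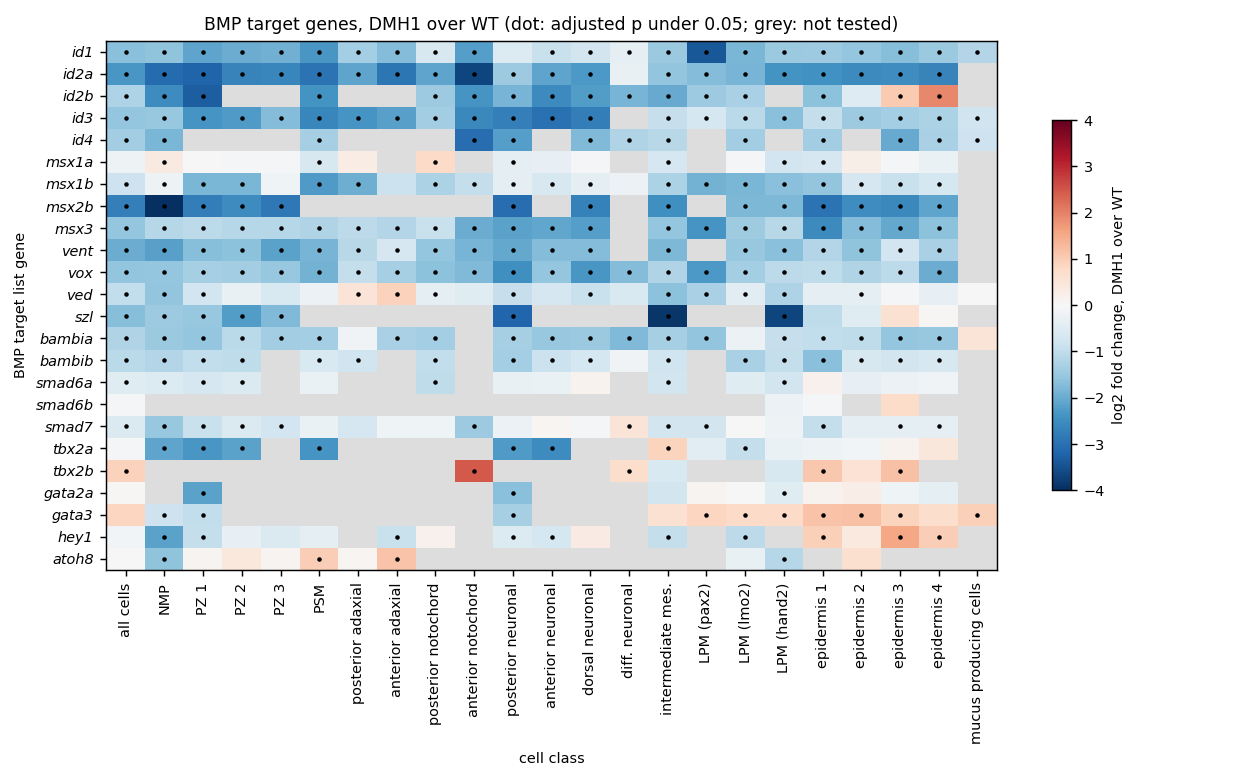
Log2 fold change (DMH1 over WT, colour, blue lower and red higher) of 24 BMP target genes (rows) over all cells and in 22 classes (columns). Dots mark adjusted p under 0.05 and grey marks pairs not tested; 272 of the 382 class pairs are called lower and 24 higher, such as id2b in epidermis 4.

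The depth of the fall varied by class. The median over target genes was lowest in the anterior notochord, -1.92 with 10 of 12 lower, where 26.7% of all genes fell. NMP followed with -1.56 and 20 of 21 lower (29.9% of all genes fell), then PZ 1 with -1.51 and 19 of 21 (30.8%), dorsal neuronal with -1.48 and 13 of 17 (26.5%), the pax2 class with -1.47 and 10 of 13 (18.7%) and posterior neuronal with -1.44 and 18 of 21 (30.5%). The smallest falls were in epidermis 3, -0.36 with 12 of 23 lower and 4 higher (26.4% of all genes fell), differentiated neuronal cells, -0.37 with 5 of 11 lower and 2 higher (22.4%), and mucus producing cells, -0.39 with 3 of 6 lower (17.8%). Epidermis 2 had -0.51, epidermis 4 -0.65, posterior adaxial cells -0.96 and epidermis 1 -0.98. Different target genes were tested in each class, so these medians describe the classes and were not tested against each other.

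id1, which encodes an inhibitor of bHLH transcription factors and is a direct Smad target, was tested in all 22 classes and fell in 21. Over all cells it had 463, 424, 404 and 607 CPM in the DMH1 libraries, against 1382, 1949, 1459.6 and 1233 CPM in the WT libraries. id1 changed by -1.67 (SE 0.17, edgeR adjusted p = 1.67e-05). All DMH1 libraries lay below all WT libraries. The fall was deepest in the pax2 lateral plate class, with 144, 125, 189 and 309 CPM in the DMH1 libraries, against 1702, 2700.0, 1896 and 1741 CPM in the WT libraries. id1 there changed by -3.39 (SE 0.33, edgeR adjusted p = 2.48e-04). In posterior neuronal cells the values were 704, 699, 625 and 1066 CPM in the DMH1 libraries, against 1039.8, 1405, 1089 and 946 CPM in the WT libraries. The change there, -0.54 (SE 0.20, edgeR adjusted p = 0.0561), was not called. The DMH1 and WT values in posterior neuronal cells overlapped, unlike those of the pax2 class.

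To test whether a change depended on the class, each class was set against the mean of the other classes where the gene could be measured, library by library. The p-values of this limma fit were adjusted over all 181809 gene and class pairs, and the difference is called the class test below. The expressing classes are those other classes where the gene stood at 0.5 times its all-cell level or more. A value after "or" is given where another setting moved the result by over 1.5 times or ended the call. These settings include the expressing classes alone and an edgeR interaction with the library as a block. For id1 the class test was -1.87 (SE 0.13, limma adjusted p = 7.48e-08) in the pax2 class and -0.62 (SE 0.03, limma adjusted p = 1.94e-13) in PZ 1. In PZ 2 it was -0.53 (SE 0.07, limma adjusted p = 2.62e-05), or -0.38 and not called under the common cell limits. In PSM, taken as the presomitic mesoderm, it was -0.84 (SE 0.14, limma adjusted p = 0.0208), or -0.85 to -0.82 and not called without library DMH3 or DMH4 or DJ1 or DJ2 or MG1 or MG2. In these classes id1 fell more than elsewhere. The fall was smaller than elsewhere in posterior neuronal cells, at 1.06 (SE 0.04, limma adjusted p = 7.31e-11), in anterior neuronal cells at 0.70 (SE 0.05, limma adjusted p = 2.42e-12), in dorsal neuronal cells at 0.84 (SE 0.09, limma adjusted p = 7.96e-04) and in the posterior notochord at 0.96 (SE 0.05, limma adjusted p = 9.51e-14). These 3 neural classes and the posterior notochord thus kept more of their WT id1 level than the average of the other classes.

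id3, a second Id gene, fell in 21 of 21 classes, with another order. In anterior neuronal cells it had 4.94, 5.01, 2.96 and 3.69 CPM in the DMH1 libraries, against 33.6, 44.5, 22.9 and 26.3 CPM in the WT libraries, and the class test gave -1.06 (SE 0.20, limma adjusted p = 5.08e-04), or -0.57 and not called under the common cell limits, or -1.61 in the edgeR interaction. In epidermis 1 it had 195, 157, 152 and 205 CPM in the DMH1 libraries, against 384, 477, 259 and 237 CPM in the WT libraries. The fall was smaller than elsewhere, with a class test of 0.87 (SE 0.09, limma adjusted p = 1.25e-05), or 0.51 against the median of the other classes, or 1.60 under the common cell limits. All DMH1 values lay below all WT values in both classes. Changes of id3 were -2.74 (SE 0.20, edgeR adjusted p = 2.11e-10) in posterior neuronal, -2.76 (SE 0.23, edgeR adjusted p = 1.62e-11) in dorsal neuronal and -2.60 (SE 0.13, edgeR adjusted p = 5.03e-13) in PSM cells. In the pax2 class, where id1 fell most, id3 changed by -0.70 (SE 0.22, edgeR adjusted p = 0.0294), or -0.67 and not called with all 16 libraries in 1 fit, or -0.42 under the common cell limits, or -0.70 to -0.32 and not called without library DMH0 or DMH2 or DMH3 or DMH4 or DJ2.

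**Figure D3:**
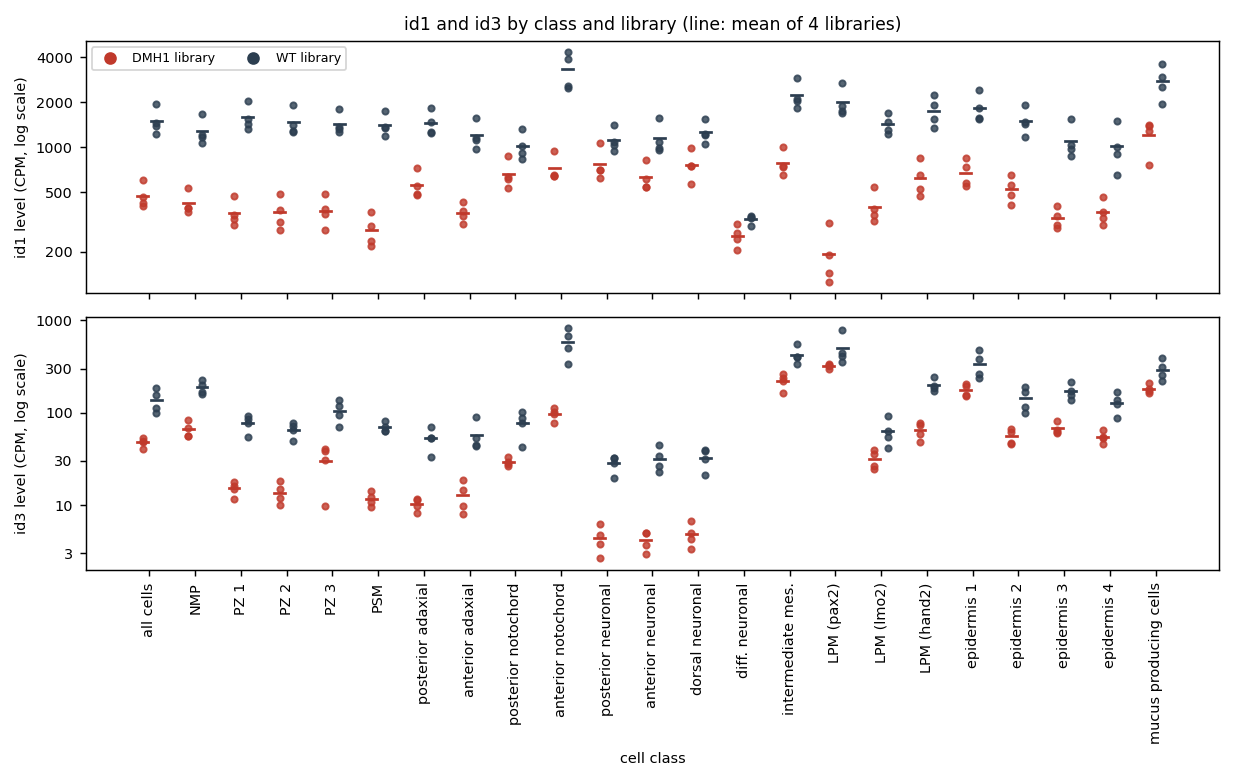
CPM (UMIs scaled to the total over the tested genes with TMM factors, log scale) of id1 (top) and id3 (bottom) in each library, over all cells and by class. DMH1 libraries are red and left of the WT libraries in dark blue, and lines are means of 4 libraries. The groups of id1 overlap in posterior neuronal cells, while in the pax2 class id1 averages 192 CPM in DMH1 and 2010 CPM in WT libraries.

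Other target genes also had large falls in some classes. id2a fell in 20 of 21 classes, and in the anterior notochord it had 31.6, 35.4, 33.2 and 52.4 CPM in the DMH1 libraries, against 664, 593, 267 and 432 CPM in the WT libraries. id2a there changed by -3.68 (SE 0.35, edgeR adjusted p = 7.76e-05). msx2b in NMP had 2.06, 2.35, 2.12 and 3.58 CPM in the DMH1 libraries, against 36.2, 53.5, 36.9 and 38.4 CPM in the WT libraries. msx2b there changed by -4.01 (SE 0.19, edgeR adjusted p = 2.97e-16), and the class test gave -1.69 (SE 0.17, limma adjusted p = 9.24e-09). szl, which encodes sizzled, a secreted inhibitor of the proteases that cut Chordin, had in the intermediate mesoderm 6.25, 3.85, 3.74 and 12.5 CPM in the DMH1 libraries, against 80.2, 175, 80.8 and 61.1 CPM in the WT libraries. szl there changed by -3.90 (SE 0.54, edgeR adjusted p = 0.00113), and it fell in 7 of 11 classes. No class test is given here for id2a or szl. In each of these 3 pairs every DMH1 library lay below every WT library, which for szl was part of a rule that named it.

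Some target genes rose in a few classes, and gata3 in most of those tested. id2b was lower in 13 of 16 classes, but in epidermis 4 it had 21.2, 32.6, 30.7 and 39 CPM in the DMH1 libraries, against 10.3, 6.69, 9.56 and 5.77 CPM in the WT libraries. id2b there changed by 1.92 (SE 0.23, edgeR adjusted p = 3.92e-08), and the class test gave 3.28 (SE 0.26, limma adjusted p = 2.14e-07). It also rose in epidermis 3 by 1.06 (SE 0.26, edgeR adjusted p = 0.00101). hey1, a bHLH repressor of the Notch pathway, fell in 7 of 16 classes and rose in 3, all epidermal; in epidermis 3 it had 58.6, 70.9, 60.6 and 56.3 CPM in the DMH1 libraries, against 24.4, 19.1, 20.2 and 21.5 CPM in the WT libraries. hey1 there changed by 1.54 (SE 0.13, edgeR adjusted p = 1.46e-10), and the class test gave 1.79 (SE 0.12, limma adjusted p = 6.35e-10). The DMH1 and WT libraries did not overlap for id2b in epidermis 4 or for hey1 in epidermis 3. ved, a vent-type repressor, fell in 10 of 22 classes, among them NMP with 267, 249, 314 and 353 CPM in the DMH1 libraries, against 744, 1099, 824 and 879 CPM in the WT libraries. ved had a class test of -1.14 (SE 0.16, limma adjusted p = 0.0103). In anterior adaxial cells ved instead had 127, 99.4, 166 and 174 CPM in the DMH1 libraries, against 47.3, 78.4, 108 and 70.7 CPM in the WT libraries. ved there changed by 0.92 (SE 0.21, edgeR adjusted p = 0.00265), or 0.88 and not called with all 16 libraries in 1 fit. tbx2b, a T-box repressor, was the target that rose over all cells, by 0.93 (SE 0.13, edgeR adjusted p = 4.39e-05), and in the anterior notochord it had 89.2, 99.5, 99.7 and 94.3 CPM in the DMH1 libraries, against 12, 17.5, 21.1 and 18.8 CPM in the WT libraries. tbx2b had a class test of 2.10 (SE 0.20, limma adjusted p = 2.75e-07). tbx2a, its paralog, rose in the intermediate mesoderm by 0.90 (SE 0.20, edgeR adjusted p = 0.00344), and fell in 7 of 14 classes. gata3, a zinc finger factor of surface ectoderm and ionocytes, rose in 7 of 12 classes and fell in 3; in epidermis 1 it had 264, 277, 237 and 214 CPM in the DMH1 libraries, against 136, 142, 73.4 and 78.2 CPM in the WT libraries. gata3 there changed by 1.15 (SE 0.21, edgeR adjusted p = 0.00102). atoh8 rose in PSM by 0.99 (SE 0.12, edgeR adjusted p = 2.45e-07) and in anterior adaxial cells by 1.15 (SE 0.19, edgeR adjusted p = 3.59e-06).

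The upstream members of the pathway moved less uniformly than its targets. Among ligands 32 of 87 pairs rose and 14 fell. bmp4 fell in 6 of 12 classes, most in NMP, where it had 3.64, 3.39, 4.56 and 4.51 CPM in the DMH1 libraries, against 16.7, 28.5, 20.9 and 17.9 CPM in the WT libraries. bmp4 there changed by -2.39 (SE 0.19, edgeR adjusted p = 1.18e-11), and the class test gave -1.39 (SE 0.17, limma adjusted p = 4.65e-07). bmp2a rose in 9 of 14 classes and admp, an anti-dorsalizing ligand of the organizer, in 6 of 6. Among antagonists and processing genes 25 of 146 pairs rose and 50 fell. chrd, which encodes Chordin, rose in posterior neuronal cells, where it had 911, 828, 888 and 946 CPM in the DMH1 libraries, against 542, 592, 499 and 602 CPM in the WT libraries. chrd there changed by 0.68 (SE 0.08, edgeR adjusted p = 2.24e-08). In NMP chrd had 6.66, 6.79, 7.82 and 3.89 CPM in the DMH1 libraries, against 25.7, 24, 32.2 and 27.1 CPM in the WT libraries. chrd there changed by -2.13 (SE 0.17, edgeR adjusted p = 1.21e-11), opposite in sign to posterior neuronal cells. It rose in 4 and fell in 14 of 21 classes. The WT level of chrd in NMP was far below that in posterior neuronal cells. The part of free RNA in the falls of chrd was not tested. fstl1a, a follistatin-like gene, fell in 15 of 18 classes. Receptors and Smads tended upward, with 98 of 198 pairs higher and 13 lower (26.3% and 25.9% for all pairs): acvr2aa and bmpr2a, type II receptors, each rose in 17 classes (of 19 and 18), bmpr1aa, a type I receptor, in 14 of 21, and smurf2, a ubiquitin ligase that removes Smads and receptors, in 18 of 19.

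Changes particular to a class were counted with the class test: 11058 of 181809 pairs (6.08%) differed from the other classes, 5663 with a higher and 5395 with a lower response. In 6725 of them the gene was also called within the class, in the direction of the difference and with a larger change than the mean of the other classes. In 1542 it was called there with a sign opposite to that mean, and a pair can be in both counts. Limiting the comparison to the expressing classes gave 3607 higher and 7119 lower, so the direction split depends on which classes form the comparison. Under the common cell limits, which leave 20 classes, 3097 of 147769 pairs differed. PZ 1 had the highest share of differing genes (11.4%) and epidermis 2 the lowest (1.52%); these shares were not matched for depth. Genes named in the following paragraphs for their class test stood, in the group where they were higher, at or above their all-cell level, and the value tested did not overlap between groups. A gene can pass the minimum count through 1 group alone and then had to differ, so the p-values of such pairs are not read as support. Such pairs include those given below with under 10 UMIs per library in the lower group. In the following paragraphs no fitted change is given where the other group averaged under 5 UMIs per library. The UMIs are given instead, or only the level in Kupffer's vesicle. In 8 further pairs outside EVL and Kupffer's vesicle the lower group averaged 5 to 10 UMIs per library, so their fitted sizes are less precise: crestin in dorsal neuronal cells, igfbp1a in anterior adaxial cells, kdrl and npr3 in the hand2 class, lhx1a in the lmo2 class, myh9a in mucus producing cells, pth2r in epidermis 1 and rgcc in the anterior notochord.

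**Figure D4:**
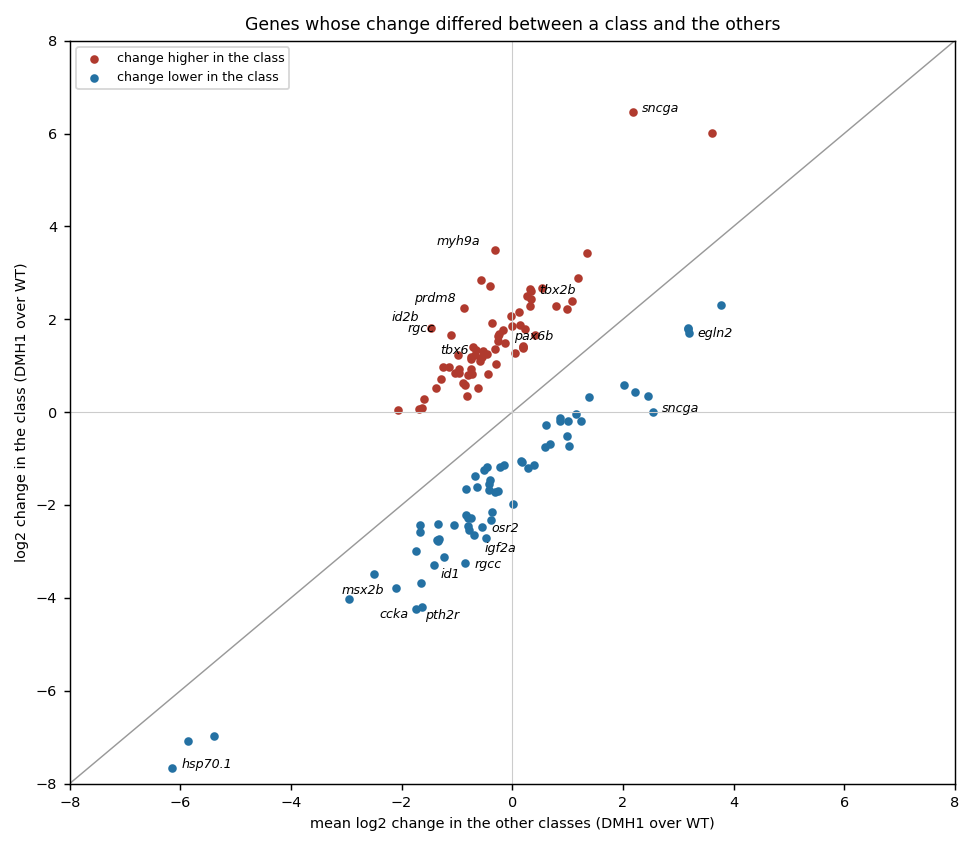
Log2 change (DMH1 over WT) of the genes named by the class test, in the class (vertical) against the mean of the other classes (horizontal); red marks a higher and blue a lower response in the class, and the grey line is equality. rgcc lies above the line in the anterior notochord and below it in anterior adaxial cells; points such as sncga in NMP rest on few UMIs in 1 group (7 over the WT libraries).

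In NMP, 59.4% of genes were called and 8.05% differed from the other classes (172 higher, 637 lower). sncga, a synuclein gene, was all but absent from WT cells of the class, with 84.8, 98.4, 63.3 and 55.7 CPM in the DMH1 libraries, against 0, 0.255, 1.23 and 0.511 CPM in the WT libraries, or 1659 UMIs over the DMH1 and 7 over the WT libraries. Its rise was not particular to NMP: it was called higher in 7 of the 8 classes where it was tested, among them PZ 3. rasl11b, a Ras-like small GTPase gene, had 87.8, 97.1, 87.9 and 83.2 CPM in the DMH1 libraries, against 45.6, 27.8, 43.1 and 38.4 CPM in the WT libraries. rasl11b there changed by 1.21 (SE 0.11, edgeR adjusted p = 6.95e-10) where the other classes averaged -0.99, and the class test gave 2.23 (SE 0.12, limma adjusted p = 1.96e-09). It thus rose in NMP and was lower on average elsewhere. adam8a, a metalloprotease gene, rose by 2.27 (SE 0.09, edgeR adjusted p = 1.10e-18), and the class test gave 1.48 (SE 0.08, limma adjusted p = 9.41e-09). The Wnt antagonist dkk1b, which fell in 18 of 18 classes, had in NMP 7.13, 3.92, 5.21 and 6.69 CPM in the DMH1 libraries, against 50.1, 60.9, 76.8 and 54.2 CPM in the WT libraries. dkk1b there changed by -3.37 (SE 0.16, edgeR adjusted p = 4.24e-15). wnt5b, a non-canonical Wnt ligand, rose in 19 of 19 classes and axin2, a Wnt target, in 19 of 21; in NMP wnt5b changed by 1.14 (SE 0.12, edgeR adjusted p = 1.24e-08). tbxta (brachyury) fell in NMP, changing by -0.46 (SE 0.08, edgeR adjusted p = 1.22e-05), or -0.27 under the common cell limits, and fgf8a by -0.70 (SE 0.08, edgeR adjusted p = 5.21e-09), or -0.46 under the common cell limits.

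In the PZ classes the calls covered 61.4% of genes in PZ 1, 53.9% in PZ 2 and 49.1% in PZ 3, and the class test 11.4% (298 higher, 907 lower), 7.01% (213 and 365) and 2.56% (85 and 91). egln2, one of the shared rises, rose less in PZ 1 than elsewhere: it had 51, 50.4, 68.3 and 58.8 CPM in the DMH1 libraries, against 16.3, 14.3, 13.7 and 21.3 CPM in the WT libraries. egln2 there changed by 1.84 (SE 0.13, edgeR adjusted p = 1.03e-10) against a mean of 3.18 in the other classes, and the class test gave -1.36 (SE 0.10, limma adjusted p = 7.53e-11). The same held in PZ 2, with a class test of -1.38 (SE 0.14, limma adjusted p = 1.90e-09). grin2da, a glutamate receptor subunit gene, rose in PZ 1 by 2.22 (SE 0.11, edgeR adjusted p = 5.86e-12), and the class test gave 1.25 (SE 0.15, limma adjusted p = 0.00216), or 0.49 against the expressing classes alone. It also changed by 2.18 (SE 0.20, edgeR adjusted p = 2.61e-06) in PZ 2 and by 1.74 (SE 0.15, edgeR adjusted p = 2.06e-12) in posterior adaxial cells, and rose in 11 of 18 classes. zgc:154164 fell in PZ 1, changing by -2.81 (SE 0.13, edgeR adjusted p = 1.14e-14), and the class test gave -1.41 (SE 0.12, limma adjusted p = 2.19e-09). In PZ 3, nfkbiab, which encodes an inhibitor of NF-kappa-B, had 77.8, 75.5, 56.4 and 78 CPM in the DMH1 libraries, against 25.1, 61.4, 43.4 and 34.3 CPM in the WT libraries, and a class test of 1.27 (SE 0.20, limma adjusted p = 1.67e-04). dkk1b in PZ 2 changed by -2.52 (SE 0.28, edgeR adjusted p = 2.58e-04).

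In PSM 59.8% of genes were called and 8.9% differed from the other classes (313 higher, 539 lower). tbx6, the T-box factor of presomitic mesoderm, had 949, 1213, 1238 and 1139 CPM in the DMH1 libraries, against 579, 501, 550.2 and 525 CPM in the WT libraries. tbx6 there changed by 1.07 (SE 0.09, edgeR adjusted p = 4.67e-10), and the class test gave 1.69 (SE 0.07, limma adjusted p = 5.84e-07), or 0.59 against the expressing classes alone. It rose in 5 and fell in 12 of 22 classes. Some genes of the segment boundary fell in the same cells, among them mespbb, which had 32.4, 67.1, 46.3 and 62.6 CPM in the DMH1 libraries, against 394, 398, 290.4 and 235 CPM in the WT libraries. mespbb there changed by -2.66 (SE 0.29, edgeR adjusted p = 2.01e-04), ripply1, which represses mesp genes and Tbx6, changed by -1.22 (SE 0.15, edgeR adjusted p = 4.51e-05) and mespab by -1.40 (SE 0.23, edgeR adjusted p = 0.00145). For tbx6 and mespbb the groups did not overlap and moved in opposite directions. For mespbb in PSM the lack of overlap was part of a rule that named it. The fall of mespbb was not particular to PSM. It was called lower in 11 of 11 classes, changing by -3.36 (SE 0.23) in PZ 3 and -2.75 (SE 0.57) in anterior adaxial cells. Over all classes the segmentation list fell in 248 of 424 pairs and rose in 61, with dlc, a Notch ligand gene, lower in 21 of 22 classes, her1 in 19 of 19 and ripply1 in 20 of 21; in PSM itself 9 of 22 fell and 6 rose, where 29.4% of all genes fell and 30.4% rose. mespaa, a further mesp gene, instead rose in PZ 1 by 1.09 (SE 0.34, edgeR adjusted p = 0.0296), or 1.65 under the common cell limits, or 0.93 to 1.14 and not called without library DMH3 or DJ1 or MG1 or MG2, and in PZ 2, changing by 1.47 (SE 0.45, edgeR adjusted p = 0.0313), or 1.47 and not called with no filter on low counts, or 1.23 to 1.58 and not called without library DMH3 or DMH4 or DJ1 or DJ2 or MG1. eva1bb rose in PSM by 2.97 (SE 0.17, edgeR adjusted p = 3.57e-12), and the class test gave 1.71 (SE 0.15, limma adjusted p = 9.19e-11). adgrv1, an adhesion receptor gene, fell, changing by -2.68 (SE 0.23, edgeR adjusted p = 5.25e-08), and the class test gave -0.91 (SE 0.16, limma adjusted p = 1.42e-04).

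Anterior adaxial cells, the slow muscle precursors beside the notochord, had 50.2% of genes called and 4.32% by the class test (226 higher, 86 lower), and posterior adaxial cells 47.6% and 4.22% (125 higher, 159 lower). ttn.2, a titin gene, had in anterior adaxial cells 2003, 1932, 1862 and 1983 CPM in the DMH1 libraries, against 938, 876, 630.4 and 789 CPM in the WT libraries. ttn.2 there changed by 1.27 (SE 0.10, edgeR adjusted p = 1.41e-12), and rose in posterior adaxial cells by 1.45 (SE 0.15, edgeR adjusted p = 1.07e-09). igfbp1a, which encodes an IGF-binding protein, rose in anterior adaxial cells, with 55.2, 51.8, 94.6 and 125 CPM in the DMH1 libraries, against 6.76, 8.52, 2.27 and 7.21 CPM in the WT libraries. igfbp1a had a class test of 2.08 (SE 0.27, limma adjusted p = 4.45e-05). klhl41b, a sarcomere assembly gene, was not called there (edgeR adjusted p = 0.978), with 313, 312, 314 and 351 CPM in the DMH1 libraries, against 335, 377, 288 and 290.0 CPM in the WT libraries. The other classes averaged -2.06, and the class test was 2.10 (SE 0.29, limma adjusted p = 0.00843). Adaxial markers in off-type classes stood at 34.3% of their all-cell level in DMH1 libraries and 41.7% in WT libraries, and their part in the klhl41b difference was not tested. In posterior adaxial cells btc, an EGF family ligand gene, was called lower, with 6 UMIs over the DMH1 and 94 over the WT libraries. egln2 rose less there than elsewhere, with a class test of -1.48 (SE 0.16, limma adjusted p = 1.32e-08). foxb1a, a forkhead gene, had 96, 79, 119.8 and 79.6 CPM in the DMH1 libraries, against 65.5, 78.1, 55.2 and 97.8 CPM in the WT libraries, was not called in the class (edgeR adjusted p = 0.0513) and had a class test of 1.15 (SE 0.13, limma adjusted p = 2.42e-08), or 2.16 under the common cell limits.

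The notochord classes had 54% (anterior) and 53% (posterior) of genes called, and 8.26% (373 higher, 299 lower) and 4.25% (219 higher, 147 lower) by the class test. rgcc, a regulator of cell cycle, had in the anterior notochord 31.2, 29.7, 33.2 and 33.2 CPM in the DMH1 libraries, against 10.9, 8.36, 12.7 and 6.71 CPM in the WT libraries. rgcc there changed by 1.71 (SE 0.23, edgeR adjusted p = 4.78e-07) where the other classes averaged -1.11, and the class test gave 2.76 (SE 0.21, limma adjusted p = 1.72e-09). igf2a, an insulin-like growth factor gene, fell there, with 8.11, 7.65, 13.8 and 9.14 CPM in the DMH1 libraries, against 89.7, 67.7, 59 and 61.7 CPM in the WT libraries. igf2a had a class test of -1.96 (SE 0.19, limma adjusted p = 1.15e-07). The groups did not overlap for either gene, which for igf2a was part of a rule that named it. sncga, called higher in 7 of 8 classes, was present in the WT anterior notochord and was not called there (edgeR adjusted p = 0.947), with 45, 57.4, 52.1 and 24 CPM in the DMH1 libraries, against 48.1, 46.4, 34.8 and 47 CPM in the WT libraries. cldn5b, a tight junction gene, was called higher, with 198 UMIs over the DMH1 and 15 over the WT libraries. p4ha1b, a collagen prolyl hydroxylase gene, rose less there than elsewhere, where it averaged 2.23. It changed by 0.40 (SE 0.10, edgeR adjusted p = 0.00181), or 0.37 and not called with all 16 libraries in 1 fit, and the class test gave -1.78 (SE 0.14, limma adjusted p = 3.40e-04). tbxta fell in the anterior notochord, changing by -0.89 (SE 0.09, edgeR adjusted p = 3.79e-09). In the posterior notochord atxn2, a gene for an RNA-binding protein, had 12.1, 13.4, 14.6 and 13.6 CPM in the DMH1 libraries, against 59.9, 65.7, 52.4 and 127 CPM in the WT libraries. atxn2 there changed by -2.46 (SE 0.25, edgeR adjusted p = 2.78e-07), and the class test gave -1.53 (SE 0.17, limma adjusted p = 4.85e-07). col9a2, a collagen gene, rose by 0.76 (SE 0.21, edgeR adjusted p = 0.0137), or 0.71 and not called without library MG1, and the class test gave 1.80 (SE 0.17, limma adjusted p = 1.45e-04), or 0.89 in the edgeR interaction. Notochord markers in off-type classes stood at 10.1% in DMH1 libraries and 21.4% in WT libraries, and their part in this difference was not tested.

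Among neural classes 60.5% of genes were called in posterior neuronal, 53.2% in anterior neuronal, 53.3% in dorsal neuronal and 45.5% in differentiated neuronal cells, and the class test called 7.81% (281 higher, 551 lower), 5.98% (242 and 295), 3.68% (166 and 159) and 5.46% (230 and 68). pax6b, a neural patterning gene, had in anterior neuronal cells 219, 210.1, 236 and 248 CPM in the DMH1 libraries, against 81, 87.8, 79.8 and 82.3 CPM in the WT libraries. pax6b there changed by 1.46 (SE 0.09, edgeR adjusted p = 2.03e-14), and the class test gave 1.63 (SE 0.13, limma adjusted p = 1.00e-05), or 1.02 under the common cell limits, or 0.37 in the edgeR interaction. her4.1, a Notch target repressor, had in the same cells 202, 212, 175 and 305 CPM in the DMH1 libraries, against 1272, 1379, 1161 and 1109.9 CPM in the WT libraries. her4.1 there changed by -2.46 (SE 0.16, edgeR adjusted p = 1.19e-07), and the class test gave -1.65 (SE 0.17, limma adjusted p = 0.00213). It changed nearly as much in posterior neuronal cells, by -2.29 (SE 0.24, edgeR adjusted p = 1.83e-04) with a class test of -1.48 (SE 0.17, limma adjusted p = 0.00414), or -0.88 in the edgeR interaction, and by -1.70 (SE 0.11, edgeR adjusted p = 1.43e-12) in epidermis 2. Reads of the near-identical her4 copies could be split between them, so single copies are uncertain, but her4.4 fell in anterior neuronal cells too, changing by -2.82 (SE 0.10, edgeR adjusted p = 9.13e-21). Both pax6b and her4.1 separated all DMH1 from all WT libraries. dbx1a, a gene of intermediate spinal progenitors, fell in posterior neuronal cells, with 1.42, 1.6, 0.725 and 2.26 CPM in the DMH1 libraries, against 29.1, 22.5, 19.1 and 23.3 CPM in the WT libraries. dbx1a had a class test of -2.03 (SE 0.23, limma adjusted p = 8.68e-07).

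In dorsal neuronal cells foxd3, a crest specifier, had 101, 164, 137 and 146 CPM in the DMH1 libraries, against 345, 338, 301 and 457 CPM in the WT libraries. foxd3 there changed by -1.39 (SE 0.15, edgeR adjusted p = 7.38e-06). olig4, a bHLH gene of the dorsal spinal cord, had 35, 51, 58.8 and 69.9 CPM in the DMH1 libraries, against 21.7, 11.8, 17.1 and 18.2 CPM in the WT libraries. olig4 there changed by 1.68 (SE 0.22, edgeR adjusted p = 3.04e-06), and prdm1a, a factor of crest and sensory neuron precursors, rose by 1.41 (SE 0.14, edgeR adjusted p = 1.28e-08). crestin fell, changing by -2.47 (SE 0.66, edgeR adjusted p = 0.0165), or -2.49 and not called with all 16 libraries in 1 fit, or -2.25 and not called under the common cell limits. Within the crest and dorsal neural list, 3 of 12 genes rose and 3 fell in this class, near the 26.8% and 26.5% of all its genes, so the list did not stand out. The neuropeptide gene ccka was nearly absent from DMH1 dorsal neuronal cells, with 0, 0.472, 0.327 and 2.68 CPM in the DMH1 libraries, against 30.9, 31.1, 36.3 and 15.9 CPM in the WT libraries. It was called lower, with 10 UMIs over the DMH1 and 211 over the WT libraries. ccka stood higher in differentiated neuronal cells, at a mean of 146 CPM in DMH1 and 909 CPM in WT libraries. It fell there too, changing by -2.58 (SE 0.35, edgeR adjusted p = 0.00109). In differentiated neuronal cells prdm8, a neuronal transcriptional regulator, had 116, 156, 194 and 187 CPM in the DMH1 libraries, against 39.2, 40.1, 19.3 and 32.9 CPM in the WT libraries. prdm8 there changed by 2.29 (SE 0.21, edgeR adjusted p = 1.87e-11), or 3.501 under the common cell limits, and the class test gave 3.11 (SE 0.23, limma adjusted p = 5.85e-08). elavl3, which encodes the neuronal RNA-binding protein HuC, rose there by 0.97 (SE 0.09, edgeR adjusted p = 3.06e-11) and dla, a Notch ligand gene, by 1.23 (SE 0.18, edgeR adjusted p = 1.63e-04). rtn1b, a reticulon gene, had 24.6, 36.9, 57.4 and 51.5 CPM in the DMH1 libraries, against 37.1, 26.1, 38.6 and 27.8 CPM in the WT libraries and was not called in these cells (edgeR adjusted p = 0.189). The other classes averaged 2.46, and the class test was -2.11 (SE 0.23, limma adjusted p = 2.06e-07), or -3.25 with a prior count of 0.5, or -3.56 in the edgeR interaction.

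The intermediate mesoderm had 49.5% of genes called and 4.58% by the class test (300 higher, 106 lower), and the pax2, lmo2 and hand2 lateral plate classes 36.8%, 51.4% and 46.7%, with 5.01% (320 higher, 18 lower), 4.67% (260 and 174) and 4.07% (315 and 38). pax2a, the paired-box factor of the pronephric primordium, had in the pax2 class 1479, 1634, 1768 and 1537 CPM in the DMH1 libraries, against 397, 460.4, 399 and 398 CPM in the WT libraries. pax2a there changed by 1.94 (SE 0.11, edgeR adjusted p = 2.53e-18). It rose also in the lmo2 class by 1.69 (SE 0.12, edgeR adjusted p = 3.07e-12), in the hand2 class by 1.62 (SE 0.18, edgeR adjusted p = 7.13e-07) and in the intermediate mesoderm by 1.004 (SE 0.09, edgeR adjusted p = 5.72e-12), 4 of 13 classes. Further kidney factors rose in the pax2 class, lhx1a by 1.82 (SE 0.14, edgeR adjusted p = 6.25e-14) and hnf1bb by 1.94 (SE 0.14, edgeR adjusted p = 3.80e-14), and 7 of 11 tested genes of the pronephros list rose there and 0 fell (18.1% of all genes in the class rose and 18.7% fell). In the lmo2 class lhx1a had 28.9, 36.1, 41.8 and 22.1 CPM in the DMH1 libraries, against 5.81, 9.12, 2.53 and 4.46 CPM in the WT libraries. lhx1a had a class test of 2.24 (SE 0.23, limma adjusted p = 5.15e-07), or 1.24 against the expressing classes alone, or 1.08 in the edgeR interaction, and 7 of 10 pronephros genes rose (25.8% of all genes in the class rose). Every DMH1 library exceeded every WT library for pax2a in the pax2 class and for lhx1a in the lmo2 class. For lhx1a such separation was part of a rule that named it, so it adds no support. In the intermediate mesoderm osr2, another kidney factor, instead fell, with 5.08, 4.62, 9.55 and 14.2 CPM in the DMH1 libraries, against 31.3, 60.1, 43.4 and 65.8 CPM in the WT libraries. osr2 had a class test of -1.92 (SE 0.25, limma adjusted p = 3.78e-05), or -1.60 and not called under the common cell limits. foxa2, an endoderm and floor plate factor, rose by 1.53 (SE 0.21, edgeR adjusted p = 9.20e-08), and the class test gave 2.12 (SE 0.22, limma adjusted p = 5.09e-07), or 0.89 in the edgeR interaction.

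Blood and vessel genes moved in both directions in the lmo2 class, where 7 of 18 rose and 3 fell (25.8% of all genes in the class rose and 25.6% fell). npas4l, the earliest known regulator of the blood and endothelial lineage in fish, had 168, 185, 159 and 188 CPM in the DMH1 libraries, against 63.9, 48.5, 55 and 65.8 CPM in the WT libraries. npas4l there changed by 1.61 (SE 0.11, edgeR adjusted p = 1.33e-12); gata1a, the erythroid master regulator, changed by 1.096 (SE 0.09, edgeR adjusted p = 6.55e-11) and spi1b, a myeloid factor, by 1.48 (SE 0.14, edgeR adjusted p = 1.83e-09). npas4l and gata1a were picked after their values were seen. hbbe3, an embryonic globin gene, had 321, 290.1, 384 and 409 CPM in the DMH1 libraries, against 1074, 1209, 1559 and 1408 CPM in the WT libraries. hbbe3 there changed by -1.90 (SE 0.13, edgeR adjusted p = 3.19e-09), or -1.92 and not called with all 16 libraries in 1 fit. Globin copies are near-identical, and hbbe3 fell in 12 of 12 classes, blood or not. Marker RNA of the lmo2 class was also lower in other classes (4.41% in DMH1 libraries, 14.05% in WT libraries), and its part was not tested. kdrl, a VEGF receptor gene, rose in 7 of 7 classes by 1.79 (SE 0.24, edgeR adjusted p = 4.49e-07) in the lmo2 and 1.78 (SE 0.24, edgeR adjusted p = 2.88e-07) in the hand2 class. mafa, a bZIP factor gene, rose in the lmo2 class by 0.72 (SE 0.16, edgeR adjusted p = 3.95e-04), or 0.70 and not called with all 16 libraries in 1 fit, and the class test gave 1.60 (SE 0.14, limma adjusted p = 9.57e-08), or 1.06 in the edgeR interaction. mid1ip1b fell, changing by -1.77 (SE 0.21, edgeR adjusted p = 6.39e-08), and the class test gave -1.44 (SE 0.23, limma adjusted p = 2.26e-04). In the hand2 class npr3, a natriuretic peptide receptor gene, had 37.2, 41, 53.4 and 48.8 CPM in the DMH1 libraries, against 7.08, 4.96, 16.5 and 2.38 CPM in the WT libraries. npr3 there changed by 2.55 (SE 0.27, edgeR adjusted p = 6.17e-09), and the class test gave 2.12 (SE 0.34, limma adjusted p = 0.00105). sb:cb1058 fell there, changing by -2.30 (SE 0.29, edgeR adjusted p = 5.98e-08), and the class test gave -1.998 (SE 0.28, limma adjusted p = 1.30e-04).

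Epidermis 1 to 4 had 48.8%, 46.5%, 53.1% and 50.5% of genes called. The class test called 9.4% (649 higher, 252 lower), 1.52% (94 and 27), 6.88% (406 and 236) and 5.22% (224 and 235). In epidermis 1, tfap2c, an AP-2 factor of surface ectoderm, had 542, 565, 658 and 508 CPM in the DMH1 libraries, against 289, 292, 218 and 243 CPM in the WT libraries. tfap2c there changed by 1.11 (SE 0.11, edgeR adjusted p = 8.36e-08), and the class test gave 1.92 (SE 0.06, limma adjusted p = 4.06e-12), or 0.28 and not called against the expressing classes alone, or 0.83 in the edgeR interaction. hand2, a lateral plate factor, fell in the same class, with 7.61, 8.82, 8.99 and 7.24 CPM in the DMH1 libraries, against 76, 75.4, 16.5 and 23.9 CPM in the WT libraries. hand2 there changed by -2.71 (SE 0.53, edgeR adjusted p = 0.0051). The WT libraries DJ1 and DJ2 stood far above MG1 and MG2. hand2 marks another class and fell in 6 of 11 classes, and the part of free RNA in its fall was not tested. arl4ab, a small GTPase gene, fell there, changing by -2.34 (SE 0.29, edgeR adjusted p = 8.12e-05). arl4ab had a class test of -1.95 (SE 0.31, limma adjusted p = 0.00397). pth2r, a parathyroid hormone receptor gene, had 4.01, 0, 0.817 and 3.86 CPM in the DMH1 libraries, against 63.1, 29.6, 43.2 and 35.8 CPM in the WT libraries. pth2r there changed by -4.15 (SE 0.53, edgeR adjusted p = 4.00e-04). In epidermis 2 klf17, a Krüppel-like factor, had 25.6, 32.2, 28.8 and 28.3 CPM in the DMH1 libraries, against 5.7, 17.4, 23.8 and 22.8 CPM in the WT libraries. klf17 had a class test of 1.89 (SE 0.31, limma adjusted p = 0.0013), or 1.04 against the expressing classes alone, or 0.91 in the edgeR interaction. In epidermis 3 dhrs3a, a retinaldehyde reductase gene, fell, changing by -1.13 (SE 0.16, edgeR adjusted p = 6.27e-07), and the class test gave -1.24 (SE 0.20, limma adjusted p = 3.80e-04), or -0.75 in the edgeR interaction. In epidermis 4 ndrg1a, an oxygen-responsive gene, was not called (edgeR adjusted p = 0.0637), with 33.6, 25.8, 65.8 and 45.8 CPM in the DMH1 libraries, against 24.5, 22.8, 33.2 and 26 CPM in the WT libraries. The other classes averaged 2.03, and the class test was -1.45 (SE 0.16, limma adjusted p = 1.04e-06).

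The smallest classes could be tested only in part. Mucus producing cells (94 DMH1 and 135 WT cells) had 36.8% of 2210 genes called, and 6% of pairs differed by the class test (152 higher, 6 lower). myh9a, a non-muscle myosin gene, had 469, 399, 778 and 535 CPM in the DMH1 libraries, against 76.1, 50.5, 58.8 and 0 CPM in the WT libraries. myh9a there changed by 3.30 (SE 0.30, edgeR adjusted p = 9.40e-11), and the class test gave 3.80 (SE 0.38, limma adjusted p = 7.91e-06), or 2.27 against the expressing classes alone, or 2.25 in the edgeR interaction. tp63, the p63 regulator of basal epidermis, had 128, 248, 269 and 123 CPM in the DMH1 libraries, against 25.4, 4.21, 19.6 and 27.5 CPM in the WT libraries. It was called higher, on 130 UMIs over the DMH1 and 7 over the WT libraries, and it rose also in epidermis 1, changing by 1.19 (SE 0.12, edgeR adjusted p = 2.38e-07). All DMH1 libraries lay above all WT libraries for both. EVL cells (271 DMH1 and 123 WT cells, down to 7 in a library) and Kupffer's vesicle cells (51 and 40, down to 4) were tested after the data were seen, over 3964 and 938 genes, of which 23.2% and 45.2% were called. In EVL id1 averaged 274 ± 74 CPM in DMH1 libraries and 922 ± 379 CPM in WT libraries (SD, n = 4 each), a change of -1.59 (SE 0.23, edgeR adjusted p = 3.34e-05), and id3 changed by -1.07 (SE 0.30, edgeR adjusted p = 0.0111). krt18a.1, a keratin gene, rose there by 1.15 (SE 0.25, edgeR adjusted p = 0.00161). Its WT level was 4265 CPM in MG1, which had 13 EVL cells, and 10543 to 11762 CPM in the other WT libraries. krt8 rose by 0.79 (SE 0.21, edgeR adjusted p = 0.00897). Of the EVL markers cyt1 and cyt1l also rose, while krt4 (edgeR adjusted p = 0.417), krt5 (edgeR adjusted p = 0.61), anxa1c and icn were not called. Some markers of other classes also fell in EVL: tbx6 changed by -1.66 (SE 0.32, edgeR adjusted p = 4.24e-04) and tcf15 by -2.73 (SE 0.44, edgeR adjusted p = 2.96e-04). msgn1, a PSM marker, averaged 222 ± 145 CPM in DMH1 libraries and 1306 ± 899 CPM in WT libraries but was not called (edgeR adjusted p = 0.0629). The part of such RNA in the EVL changes was not tested. In Kupffer's vesicle vent was called lower, with 28.6, 0, 37.8 and 41.3 CPM in the DMH1 libraries, against 272, 244, 191 and 193 CPM in the WT libraries. There id1 changed by -1.18 (SE 0.19, edgeR adjusted p = 1.66e-06) and fgf8a by -1.03 (SE 0.21, edgeR adjusted p = 9.00e-05). dand5, the Nodal antagonist that marks this organ, had a change of -0.48 (SE 0.51, edgeR adjusted p = 0.494) and was not called. The named shared changes were present in both small classes where tested. In Kupffer's vesicle only heat shock genes among them were tested, and none of the named shared rises. In EVL hsp70.1 changed by -5.005 (SE 0.48, edgeR adjusted p = 8.90e-06). In Kupffer's vesicle hsp70.1 stood at 9.52 CPM in 1 DMH1 library and at 0 in 3, against 244 to 836 CPM in WT libraries. Polster had 0 DMH1 cells and 9 WT cells and was not tested.

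The remaining gene lists are given as pairs of a gene and a class, to be read against 26.3% higher and 25.9% lower for all pairs. Adhesion and matrix genes rose in 260 and fell in 129 of 594 pairs, FGF ligands and response genes in 144 and 109 of 421, retinoic acid genes in 95 and 77 of 282, and intermediate and ventral neural genes in 39 and 32 of 120. Pronephros and intermediate mesoderm genes rose in 41 and fell in 14 of 97, and Kupffer's vesicle and cilia genes in 41 and 30 of 130. Falls outnumbered rises for cell cycle genes (267 lower, 122 higher of 610), Notch genes (190 and 104 of 407) and tailbud and Wnt genes (136 and 84 of 336). They also did so for proneural and early neuron genes (86 lower, 19 higher of 165), neural crest and dorsal neural genes (84 and 39 of 190) and muscle genes (100 and 62 of 256). Notochord and Hedgehog genes fell in 126 and rose in 52 of 236 pairs, blood and endothelial genes in 77 and 19 of 128, and lateral plate genes in 36 and 15 of 100. Epidermis and ionocyte genes fell in 103 and rose in 44 of 413 pairs, and genes of yolk, endoderm and white blood in 12 and 6 of 74. Tissue genes enter these counts also in classes that do not make them. Marker RNA in such classes, given above, moved with the groups, and its part in the falls was not tested.

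Cell shares did not overlap between groups in the lateral plate classes and EVL. The pax2 class was 1.83 ± 0.227% of cells in DMH1 libraries and 0.766 ± 0.197% in WT libraries (SD, n = 4 each). The hand2 class was 4.24 ± 0.455% in DMH1 libraries and 2.46 ± 0.757% in WT libraries, the lmo2 class 4.68 ± 0.210% and 3.40 ± 0.441%, and EVL 0.866 ± 0.129% and 0.326 ± 0.219%. These 4 of 25 classes each had the smallest possible p (exact two-sided permutation p = 0.0286), but none passed adjustment over the classes (adjusted p = 0.179). The WT libraries were not alike: EVL took 0.548 and 0.473% of cells in DJ1 and DJ2 but 0.187 and 0.0955% in MG1 and MG2, and the hand2 class 3.14 and 3.09% but 1.89 and 1.73%. In percentage points the largest difference was in PSM, with 7.70 ± 1.14% of cells in DMH1 libraries and 9.77 ± 1.28% in WT libraries (exact permutation p = 0.0857). PZ 1 took 10.5 ± 0.780% of cells in DMH1 libraries and 12.4 ± 1.13% in WT libraries and PZ 2 4.89 ± 0.851% and 6.56 ± 0.982% (exact permutation p = 0.0571 for each). As a log ratio to the other classes, 9 shares had an unadjusted exact permutation p of 0.0286, 4 higher and 5 lower, and 0 passed adjustment. Under the common cell limits the difference of the lmo2 class turned to -1.28 percentage points (exact permutation p = 0.257), against 1.28 points over all deposited cells. Since pax2a itself rose in the lateral plate and intermediate mesoderm classes, more cells of the pax2 class and a changed assignment of cells to it cannot be told apart.

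**Figure D5:**
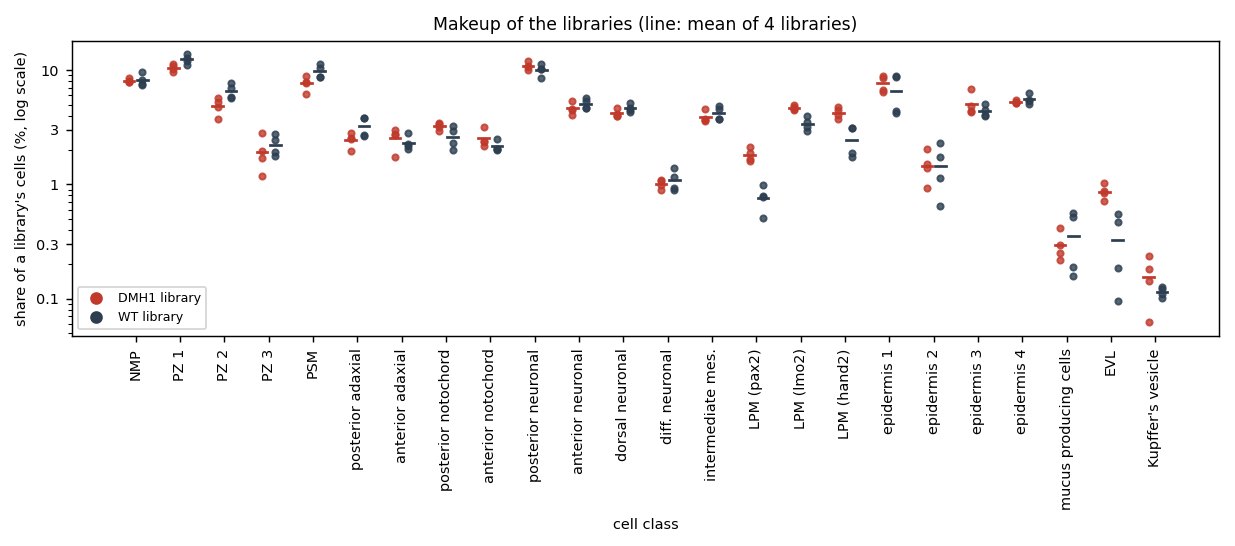
Share of each library's cells (%, log scale) in 24 classes; DMH1 libraries are red and left of the WT libraries in dark blue, lines are means of 4 libraries, and shares of 0 are not drawn. The pax2, lmo2, hand2 and EVL classes are higher in all DMH1 libraries than in any WT library.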

How the data were processed

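The authors deposited 1 matrix of UMI counts for 21301 genes and 130661 cells, with each cell's library, treatment, class, and the percentage of its UMIs that is mitochondrial, per the file headers. Cell Ranger and the GRCz11 genome are named in the submitters' processing notes, and the libraries were 10x 3′ droplet libraries per the labels' protocols. The clustering was done on an integrated data set, per the file headers, and no doublets were removed here. Library names show the treatment but not which labelled sample a library is, so libraries were used as unnumbered replicates. Libraries of the other treatments were used only in the alternative with all 16 libraries in 1 fit.

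UMIs were summed per library and class. The CPM given were scaled to the total over the tested genes with TMM factors. In EVL and Kupffer's vesicle they were scaled to the class total instead. DMH1 was tested against WT in each class with at least 10 cells per library by edgeR 4.0.16 (quasi-likelihood, robust, TMM scaling, expression filter) in R 4.3.3, with Benjamini-Hochberg adjustment and a threshold of 0.05. The SE given with an edgeR change was derived as its absolute value divided by the square root of the F statistic. The class test used limma 3.58.1 on log2 CPM with a prior count of 2, for genes with a mean count of at least 10 in the class and 5 in at least 3 other classes, adjusted over all pairs. Matched depth used random thinning of the sums. Shares were compared by exact permutation over all 70 assignments. DESeq2 1.42.0, other scalings, no expression filter, common cell limits, all 16 libraries in 1 fit and leaving out each library were alternatives. The methods were tested on simulated counts. Sums hold counting error that falls with the UMIs of a class, so small classes are less precise. Levels in CPM compare a gene with itself only, since tags come from the 3′ end.

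Genes are named as follows: the 5 highest and 5 lowest shared changes, per class the 3 highest and 3 lowest class tests and the 2 highest and 2 lowest changes not called in most classes (at least 20 CPM, no overlap), up to 8 list genes called in most classes, and markers. The members and lists were chosen with earlier results of these data known.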

Additional observations from a re-analysis of the deposited data

Results flagged for a closer look

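In 117 groups of 4 libraries examined for 1 value far from the rest, 5 were found, and chance gives about 1 in 20. NMP cells made up 8.53% of library DMH0, against 7.88 to 7.98% of the other DMH1 libraries, and anterior notochord cells 2.51% of library MG2, against 1.99 to 2.06% of the other WT libraries. Over all cells egln3 stood at 12.5 CPM in library DJ2 (3.57 to 4.76 CPM in the other WT libraries) and ldha at 8.88 CPM in the same library (5.75 to 6.24 CPM). egln2 stood at 8.13 CPM in library MG2 (6.46 to 6.63 CPM in the other WT libraries).

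The response of 11058 gene and class pairs differed from that of the other classes by the limma class test. Among BMP target genes, those called higher in a class while the other classes were lower on average were id2b in epidermis 4 (class test 3.28) and epidermis 3 (2.36), and hey1 in epidermis 3 (1.79), epidermis 1 (1.19) and epidermis 4 (1.17). atoh8 differed in anterior adaxial cells (1.35) and PSM (1.22), ved in anterior adaxial (1.48) and posterior adaxial cells (1.01), and tbx2a in the intermediate mesoderm (1.78). msx1a differed in the posterior notochord (0.91) and NMP (0.52), and smad7 in differentiated neuronal cells (1.01).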

How the results depend on the processing

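No paired analysis was possible because the library names do not carry the replicate numbers of the labels. In the main fits 86579 of 165819 pairs tested were called. Thinning all class sums to at most 189671 UMIs left fewer pairs to test, and 19840 of 45749 were called. Under the common cell limits 59786 of 127086 were called. The number was 73114 of 165819 by DESeq2 and 65583 of 178871 with all 16 libraries in 1 fit. It was 48505 when only pairs at or above the all-cell level were counted and 79260 to 85411 when a library was left out. The 11058 pairs of the class test, of 181809 tested, became 3097 of 147769 under the common cell limits. They became 14074 in the edgeR interaction and 8001 to 11015 when a library was left out. At matched depth 12995 calls became 20924 in the classes with at least 100 cells, where more UMIs and genes were tested. The 272 lower BMP target pairs, of 382 tested, became 182 of 292 under the common cell limits, where fewer cells and classes were tested. They became 252 of 439 with all 16 libraries, 255 by DESeq2 and 256 to 283 when a library was left out.

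The EVL share difference of 0.540 percentage points became 0.746 under the common cell limits (exact permutation p = 0.0571) and 0.463 to 0.614 when a library was left out. That of the lmo2 class, 1.28, reversed to -1.28 under the common cell limits and was 1.13 to 1.47 when a library was left out. For elavl3 in dorsal neuronal cells the class test of 1.56 reversed to -0.13 against the expressing classes alone, and for id3 in PZ 2 that of -0.58 reversed to 0.23 under the common cell limits; the cause was not tested. Over the named genes, class tests kept direction and call in 1916 recomputed values, kept direction without the call in 193 and reversed in these 2; calls within a class kept both in 6196 and lost the call in 269. Small classes (EVL, Kupffer's vesicle) were tested under 1 setting only. Depth limits the small classes most, and a gene without a call there was not detectably changed at this depth.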
